A study of Mus musculus with 2 samples.

Results

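A set of 9 genes for extracellular matrix proteases and their inhibitors were followed in single macrophages sorted from the mouse small intestine: the matrix metalloproteinase genes Mmp2, Mmp9, Mmp12, Mmp13 and Mmp14, the ADAM-family genes Adamdec1 and Adam17, and the inhibitor genes Timp1 and Timp2. They were listed by name, and all 9 were found among the 27998 genes of both count matrices. The study has 2 libraries made with droplet 3′ single-cell RNA sequencing, in which a molecular barcode (unique molecular identifier, UMI) marks every copied transcript. The wild-type library came from male C57BL/6J mice of a commercial breeder (Janvier). The other came from Ccr2-/- mice (JAX strain #:004999) kept as an in-house colony, so origin and genotype cannot be told apart. In both groups the intestines of 3 to 4 mice were pooled, the epithelium was stripped, the tissue was digested with Liberase TL, and live CD45+ cells that were negative for CD3, TCRb, B220, SiglecF, Ly6C and Ly6G and positive for CD11b, MHCII and CD64 were sorted. The labels give no age and no treatment. The comparison addresses what macrophages of the gut express when monocytes cannot enter the tissue through the chemokine receptor CCR2. Each genotype is 1 library of pooled mice, no value has a biological replicate, and no test between genotypes was possible. The wild-type cells ran in 2 lanes, which are shown as a technical yardstick.

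Matrix metalloproteinases are zinc enzymes that are made as inactive precursors and cut collagen, elastin and other matrix proteins once their propeptide is removed. TIMP proteins bind the active site and block it. TIMP2 also tethers the MMP2 precursor to the membrane-bound enzyme MMP14, which then activates it. ADAM17 is a membrane sheddase, best known for releasing TNF from the cell surface, and ADAMDEC1 is a secreted relative of the ADAM proteases that is known from macrophages and stromal cells of the gut. In the intestinal mucosa, macrophages derived from monocytes are replenished through CCR2, and long-lived macrophages, which often carry TIM-4 (Timd4), depend on it less.

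Mmp13 (ENSMUSG00000050578, chr9:7272514-7283331, plus strand, GRCm38) and Mmp12 (ENSMUSG00000049723, chr9:7344381-7369499, plus strand) are neighbours in the metalloproteinase cluster of chromosome 9. Promoter windows from 250 bases before to 50 bases after a RefSeq start (GRCm38.p6) were at hand for 6 of the 9 genes. They were searched on both strands for the AP-1 motif TGANTCA, the site bound by dimers of Fos and Jun proteins. Of all 32851 RefSeq windows of this length, 7.81% held it. The Mmp13 window and the window of the second Mmp12 start held 1 match each, and those of the first Mmp12 start, Mmp14, Adam17, Timp1 and Timp2 held none. Both windows with a match are shown because the levels of Fos and Jun family genes differed between the libraries, as described further on. The 100 bases before each start are printed 5′ to 3′, with the motif in capitals (35 to 29 bases before the start in Mmp13, and 44 to 38 in Mmp12).
Mmp13, chr9:7272414-7272513, plus strand: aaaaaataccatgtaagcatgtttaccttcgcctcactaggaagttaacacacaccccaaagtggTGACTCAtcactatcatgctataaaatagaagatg
Mmp12, second start, chr9:7347274-7347373, plus strand: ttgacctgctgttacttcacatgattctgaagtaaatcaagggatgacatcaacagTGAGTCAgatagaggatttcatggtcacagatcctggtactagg
A match of these letters is a description of the window and was not tested as a binding site.

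Of the deposited barcodes, 3016 wild-type cells (2109 in lane 1 and 907 in lane 2) and 2612 knockout cells passed a filter of 200 or more detected genes and no more than 10% of UMIs from mitochondrial genes. The libraries differed in depth, with medians of 6185 and 6034 UMIs per cell in the wild-type lanes and 2439 in the knockout. The lanes shared 5 barcode sequences, lane 1 and the knockout shared 6, and lane 2 and the knockout shared 0. Ccr2, the deleted gene, stood at 331 CPM (UMIs scaled to a library total of 1000000) in the wild type and at 6.88 CPM (50 UMIs) in the knockout. Where its 3′ tag lies relative to the deletion is not given in the sources used here. At least 3 of 8 macrophage markers were detected in 99.2% of wild-type and 93.6% of knockout cells, and all 8 markers were detected in both libraries. The 9 immediate-early genes of the marker list, among them Fos, Jun and Egr1, summed to 5434 and 5335 CPM in the wild-type lanes and to 21119 CPM in the knockout. The 8 fibroblast markers summed to 37.5 and 14.9 CPM in the wild-type lanes and to 271 CPM in the knockout. In the same order, the 8 endothelial markers summed to 5.28, 7.53 and 92.8 CPM, and the 5 smooth muscle markers to 23.3, 21.3 and 79.3 CPM. Of 6 neutrophil markers, 3 were at 0 in the wild type and 4 in the knockout, and no cell carried 3 of them.

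Most of these genes stood higher in the knockout, with Adamdec1, Mmp13 and Timp2 farthest above the wild type and Mmp12 below it. UMIs were summed over cells and scaled to CPM, and the log2 ratio between knockout and wild type was taken with a pseudocount of 1 CPM for genes with a mean of at least 10 CPM in the libraries. This minimum was passed by 8 members and not by Timp1. Of the 8 members, 3 stood at least 2-fold higher in the knockout (Mmp13, Adamdec1 and Timp2), against 9.04% of all 7401 genes above the minimum, and 1 stood at least 2-fold lower (Mmp12), against 3.12%. The median log2 ratio was 0.75 over the 8 members and 0.18 over all 7401 genes, so a value near 0.18 is the centre of this comparison. The members were chosen with earlier results of these data known. Here and below, member counts set beside all genes cannot be separated from that choice. Between the wild-type lanes 0.878% of genes differed at least 2-fold in either direction, and no member did.

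**Figure D1:**
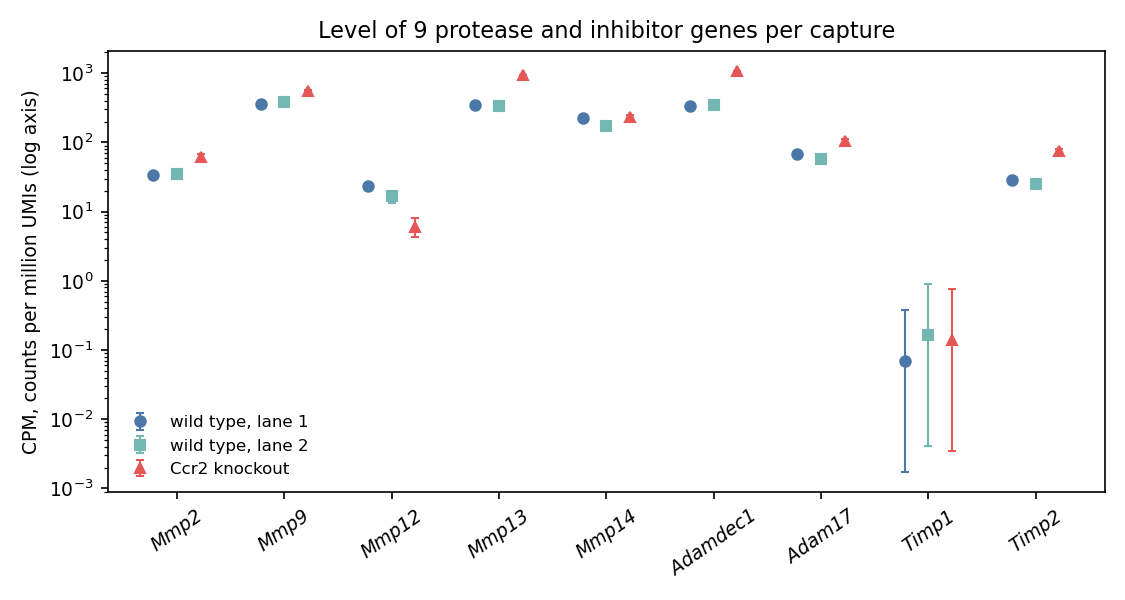
CPM (log axis) of the 9 genes in wild-type lane 1, wild-type lane 2 and the Ccr2 knockout. Points are sums over all kept cells and bars are exact 95% Poisson intervals, which cover counting error only. Adamdec1 and Mmp13 stand near 341 CPM in both wild-type lanes and at 1057 and 932 CPM in the knockout, Mmp12 falls below the wild type, and Timp1 rests on 3 UMIs in all.

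Adamdec1 (ENSMUSG00000022057, chr14:68563380-68582095, minus strand) was the most abundant member in the knockout. It had 341 CPM in lane 1, 343 CPM in lane 2 and 1057 CPM in the knockout. The lanes were alike, and the knockout stood 3.10-fold above the wild type (95% Poisson interval 3.00 to 3.20, log2 ratio 1.63). Shares of cells with a UMI depend on depth, so each cell was thinned at random to 1000 UMIs, which left out 1 wild-type and 196 knockout cells that were shallower. After thinning, Adamdec1 was detected in 24.7% of lane 1 cells, 23.2% of lane 2 cells and 50.9% of knockout cells (Clopper-Pearson interval of the knockout 48.9% to 52.9%). Without thinning the shares were 51.5% in the wild type and 66.5% in the knockout. In both readings more knockout cells carried the gene. The highest count in a cell was 66 UMIs in the wild type and 92 in the knockout.

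Adamdec1 was also dense in the few cells that carried fibroblast genes. Cells with at least 3 of 8 fibroblast markers numbered 7 in the wild type, all in lane 1, and 24 in the knockout. In them Adamdec1 reached 2086 CPM in the wild type and 3278 CPM in the knockout, where they held 4.66% of the library's Adamdec1 UMIs. Without the 77 wild-type and 69 knockout cells that had at least 3 markers of any non-macrophage type, Adamdec1 stood at 345 CPM in the wild type and 1045 CPM in the knockout. The log2 ratio without these cells was 1.59, close to that with them. The macrophage genes C1qa, C1qb and C1qc summed to 9101 CPM in the fibroblast-marker cells of the wild type and 2125 CPM in those of the knockout. Cells outside all non-macrophage gates had 12668 and 8660 CPM. The gate thus held unlike cells in the libraries, and what these cells are was not tested.

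Mmp13 encodes collagenase 3, which cuts fibrillar collagen. Its levels were 341 CPM in lane 1, 340 CPM in lane 2 and 932 CPM in the knockout. The knockout stood 2.74-fold above the wild type (interval 2.65 to 2.83, log2 ratio 1.45), and the intervals of the lanes overlapped. Among cells with 2000 to 4000 UMIs in both libraries its log2 ratio was 0.79, under 2-fold, while those of Adamdec1 and Timp2 were 1.16 and 1.30. After thinning Mmp13 was detected in 27.8% of lane 1 cells, 27.4% of lane 2 cells and 48.6% of knockout cells, and unthinned in 62.8% of wild-type and 70.1% of knockout cells. Cells with at least 3 fibroblast markers had less of it than the library as a whole, 155 CPM in the wild type and 156 CPM in the knockout.

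Mmp9 (ENSMUSG00000017737, chr2:164940780-164955850, plus strand) and Mmp2 (ENSMUSG00000031740, chr8:92827291-92853420, plus strand) encode the gelatinases, which cut denatured collagen and basement membrane collagen. Mmp9 had 363 CPM in lane 1, 385 CPM in lane 2 and 559 CPM in the knockout, a 1.51-fold difference between the libraries (interval 1.46 to 1.57, log2 ratio 0.60). After thinning it was detected in 26.6% of lane 1 cells, 30.0% of lane 2 cells and 34.9% of knockout cells. The knockout interval (33.0% to 36.9%) was apart from that of the whole wild-type library (26.1% to 29.3%) but touched that of lane 2 (27.1% to 33.1%). Without thinning, the shares were 54.5% in the wild type and 52.6% in the knockout, so the direction of the Mmp9 share rests on the thinning.

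Mmp2 was far rarer than Mmp9 in both genotypes. UMIs of 3′ tags do not scale with transcript length. How fully each gene is counted can still differ, so levels of different genes are set side by side only roughly. Mmp2 had 33.8 CPM in lane 1, 34.4 CPM in lane 2 and 61.7 CPM in the knockout, 1.82-fold above the wild type (interval 1.61 to 2.05, log2 ratio 0.84). Its thinned shares were 3.41%, 3.09% and 4.80%, and the intervals of the genotypes overlapped. Unthinned, the order was the other way round, with 18.3% in the wild type and 12.6% in the knockout. Mmp2 stood highest in the cells with at least 3 fibroblast markers, with 259 CPM in the wild type and 357 CPM in the knockout, where these 24 cells held 8.71% of its UMIs. Without cells that had at least 3 markers of any non-macrophage type, Mmp2 was at 33.9 CPM in the wild type and 58.4 CPM in the knockout.

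Mmp14 (ENSMUSG00000000957, chr14:54431612-54445364, plus strand), which encodes the membrane-type metalloproteinase that activates the MMP2 precursor, stood at a similar level in both genotypes. It had 224 CPM in lane 1, 175 CPM in lane 2 and 235 CPM in the knockout. The lanes differed more from each other (log2 ratio -0.36, lane 2 over lane 1) than the libraries did (0.16). Relative to the median of all genes the Mmp14 ratio was -0.02, and it was -0.03 when the libraries were scaled by median-of-ratios size factors in place of total UMIs. Thinned shares were 19.1%, 15.1% and 20.6%. The knockout interval (19.0% to 22.3%) overlapped those of the whole wild type (16.5% to 19.3%) and lane 1, and lay above that of lane 2 (12.8% to 17.6%). Unthinned shares, which follow depth, were 59.6% in the wild type and 38.4% in the knockout.

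Adam17 (ENSMUSG00000052593, chr12:21323509-21373632, minus strand) had 68.6 CPM in lane 1, 56.7 CPM in lane 2 and 104 CPM in the knockout, 1.59-fold above the wild type (interval 1.45 to 1.74, log2 ratio 0.66). It was detected after thinning in 7.59%, 6.62% and 9.73% of cells, and the interval of the knockout (8.57% to 11.0%) was just apart from that of the wild type (6.39% to 8.28%). Without thinning the order was the other way round, with 33.3% in the wild type and 22.5% in the knockout. Iah1 and Gm22766, both on the opposite strand, overlap Adam17 in the annotation.

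Mmp12, which encodes the macrophage metalloelastase, was the only member that stood lower in the knockout. It had 23.2 CPM in lane 1 (338 UMIs), 16.5 CPM in lane 2 (101 UMIs) and 5.92 CPM in the knockout (43 UMIs). The wild type stood 3.59-fold above the knockout (interval 2.62 to 5.03, log2 ratio between knockout and wild type -1.68). Thinned shares were 1.28%, 1.10% and 0.455%, and the knockout interval (0.227% to 0.813%) was below that of the whole wild-type library (0.865% to 1.69%) but overlapped that of lane 2 (0.531% to 2.02%). Mmp12 was a transcript of few cells. In the wild type 9 cells with at least 10 UMIs of it held 163 of the 439 UMIs, 8 of them in lane 1, and the highest cell had 36 UMIs. The highest knockout cell had 5.

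At full depth, many cells with Mmp12 also had Ccr2. Of the 140 wild-type cells with any Mmp12 UMI, 72.9% also had a Ccr2 UMI, against 42.5% of the 2876 cells without one. The cells with Mmp12 were also deeper, with a median of 9389 UMIs against 6020, and at equal depth the lanes disagreed. After thinning, 40.7% of the 27 Mmp12-positive cells of lane 1 had a Ccr2 UMI, against 21.0% of other cells, and 10% of the 10 Mmp12-positive cells of lane 2, against 19.4%. Of the 9 cells with at least 10 Mmp12 UMIs, 8 had a Ccr2 UMI and 0 had 3 markers of any non-macrophage type. When all cells with a Ccr2 UMI at full depth were left out, 43.9% of wild-type cells, the Mmp12 log2 ratio between the genotypes was -0.67. Among cells without a Ccr2 UMI after thinning, the ratio was -1.27 (0.377-fold, interval 0.263 to 0.528). That side still holds cells with a Ccr2 UMI at full depth. The part of Ccr2-positive cells in the Mmp12 difference was not tested. Mmp12 overlaps Mmp1b on the opposite strand.

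The inhibitors were unequal, with Timp2 measurable in both genotypes and Timp1 almost without UMIs. Timp2 (ENSMUSG00000017466, chr11:118301069-118355740, minus strand) had 29.0 CPM in lane 1, 25.4 CPM in lane 2 and 74.7 CPM in the knockout. The knockout stood 2.67-fold above the wild type (interval 2.37 to 3.01, log2 ratio 1.39). Thinned shares were 2.42%, 2.10% and 6.83%, with the knockout apart from both lanes. The 24 knockout cells with at least 3 fibroblast markers carried Timp2 at 302 CPM and held 6.08% of its UMIs. Without cells that had at least 3 markers of any non-macrophage type, Timp2 stood at 27.2 CPM in the wild type and 71.8 CPM in the knockout. Cep295nl overlaps Timp2 on the same strand, so reads of the pair may be divided in an unknown way.

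Timp1 (ENSMUSG00000001131, chrX:20870166-20874735, plus strand) gave 1 UMI in each wild-type lane and 1 in the knockout. All 3 captures are below the floor of 3 counts, which is 0.145 CPM in the wild type and 0.413 CPM in the knockout, and no fold is given. After thinning 0 cells had a Timp1 UMI. A count of 3 would be 0.0995% of wild-type and 0.124% of knockout cells, and the upper Clopper-Pearson limits for cells with a Timp1 UMI were 0.122% and 0.153%. The cells with at least 3 fibroblast markers also had 0 Timp1 UMIs, in 7 wild-type and 24 knockout cells. Timp1 overlaps Syn1, on the opposite strand, in GENCODE M21. The annotation used for the deposited counts is not given in the sources used here, so whether Timp1 transcripts were fully counted is not known, and its values are not read as absence.

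The 5 Mmp members summed to 975 CPM in the wild type and 1794 CPM in the knockout, and both Timp members to 28.0 and 74.9 CPM. Mmp9 was the most abundant Mmp transcript in the wild type and Mmp13 in the knockout. The 14 other Mmp genes of the list summed to 7.40 CPM in the wild type and 20.5 CPM in the knockout, and none reached the minimum. The most abundant of them was Mmp19 in the wild type (3.34 CPM) and Mmp10 in the knockout (13.2 CPM).

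**Figure D2:**
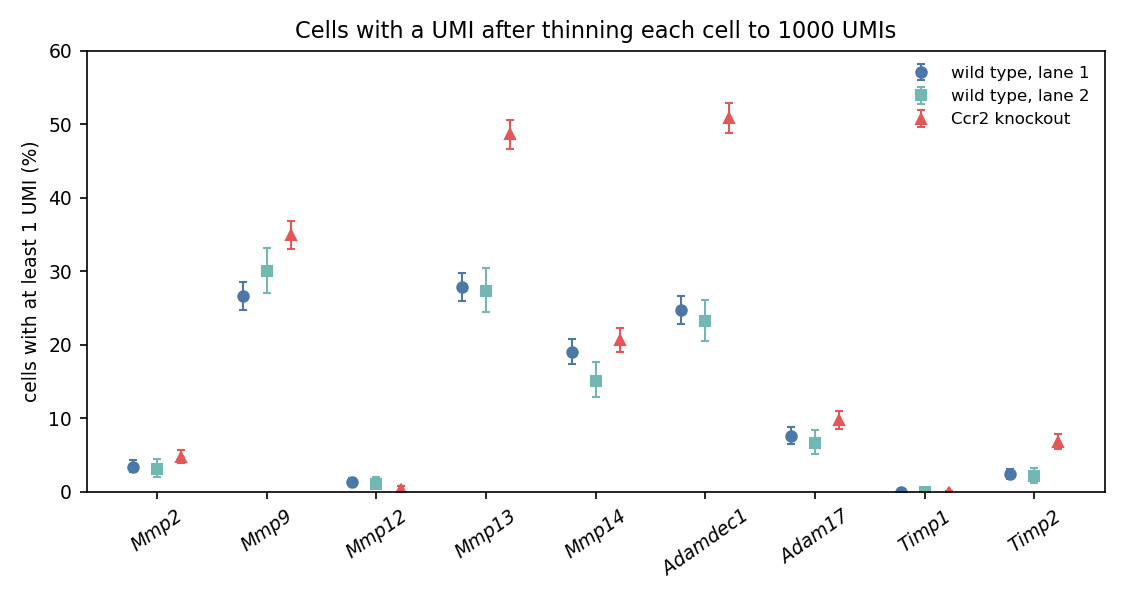
Percentage of cells with at least 1 UMI of each gene after thinning every cell to 1000 UMIs, per capture, with exact 95% Clopper-Pearson intervals. About 25% of wild-type and 50.9% of knockout cells carry Adamdec1, Mmp13 shows the same separation, and the Mmp14 interval of the knockout overlaps that of lane 1 but not that of lane 2.

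Judged by thinned shares, 5 members were detected in more knockout than wild-type cells with intervals apart (Mmp9, Mmp13, Adamdec1, Adam17 and Timp2), against 22% of all genes, and 1 in fewer (Mmp12), against 14.4%. In droplets, free RNA can place UMIs in cells that do not make a gene. The background was read in cells with at least 3 lymphoid markers and a low C1q share, 25 in the wild type (median 8510 UMIs) and 24 in the knockout (median 2280 UMIs). Of the 9 members only Mmp9 (2 knockout cells, 8.33%), Mmp13 (2 cells in each library, 8% and 8.33%) and Adamdec1 (1 wild-type cell, 4%) had any UMI there after thinning. The shares of these genes over all cells were above those values, though 24 or 25 cells leave wide intervals. At full depth the knockout background cells held Timp2 at 49.4 CPM (4 UMIs, interval 13.5 to 126), which cannot be told apart from its 74.7 CPM in the library. They held Mmp13 at 160 CPM and Mmp9 at 49.4 CPM, below the library levels of 932 and 559 CPM.

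Cells with several of these transcripts were more frequent in the knockout. None of the 9 genes was detected in 34.2% of thinned wild-type cells, the same in both lanes, and in 15.3% of knockout cells. At least 4 were detected together in 2.55% of wild-type cells (2.47% and 2.76% in the lanes) and in 7.20% of knockout cells. The mean number of members detected per cell was 1.12 in the wild type and 1.77 in the knockout. This mean restates the single shares, which differed most for Adamdec1 (26.6 percentage points) and Mmp13 (20.9 percentage points). These counts per cell have no share over all genes beside them.

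Each capture was then divided by whether a cell had a UMI of Thbs1, Ccl24, Timd4 or Ccr2 after thinning. Thbs1 encodes the matrix protein thrombospondin-1, Ccl24 a chemokine that attracts eosinophils, and Timd4 a receptor for phosphatidylserine of long-lived macrophages. A cell without a UMI may still express the gene, so the negative side is a mixture. Positive cells numbered 253, 80 and 614 for Thbs1 in lane 1, lane 2 and the knockout, 121, 65 and 197 for Ccl24, and 68, 27 and 343 for Timd4. For Ccr2 they numbered 449 and 175 in the wild-type lanes, and 11 in the knockout, where Ccr2 is deleted and the positive side was not read. Members' levels are given below as CPM summed over the cells of each side.

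Thbs1-positive cells were rich in Adamdec1 and Mmp14. Adamdec1 stood at 634 CPM in positive and 309 CPM in negative cells of lane 1, at 617 and 321 CPM in lane 2, and at 1576 and 891 CPM in the knockout. After thinning, Adamdec1 was detected in 41.1% of positive and 22.5% of negative cells of lane 1, in 37.5% and 21.8% in lane 2, and in 71.8% and 43.7% in the knockout. The intervals were apart in all 3 captures. Mmp14 behaved alike, with 347 and 211 CPM in lane 1, 254 and 169 CPM in lane 2, and 361 and 195 CPM in the knockout, and with shares of cells that were again apart in every capture. So Mmp14, whose level was similar in both genotypes, differed between cells within each of them. Thbs1-positive cells were somewhat shallower in the wild type, with medians of 4513 against 6440 UMIs in lane 1.

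Mmp13 was higher in Thbs1-positive cells of the wild type (543 and 319 CPM in lane 1, 603 and 320 CPM in lane 2) and less so in the knockout (1038 and 874 CPM), where the shares of cells overlapped. Timp2 went the other way. It stood at 7.11 CPM in Thbs1-positive and 31.4 CPM in Thbs1-negative cells of lane 1, at 15.9 and 26.1 CPM in lane 2, and at 42.2 and 85.0 CPM in the knockout, where the shares of 4.23% and 7.71% were apart. Over the 8 measurable members 6 lay above and 2 below zero in all 3 captures, while 25.7% of all genes lay above and 19.7% below. At 2-fold in every capture 0 members were higher, against 0.162% of all genes, and 0 were lower, against 0.216%.

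Ccl24-positive cells had more Mmp9. Mmp9 stood at 726 CPM in Ccl24-positive and 341 CPM in Ccl24-negative cells of lane 1, at 931 and 353 CPM in lane 2, and at 835 and 530 CPM in the knockout. Its thinned shares were 52.1% and 25.1%, 50.8% and 28.4%, and 51.8% and 33.4%, with intervals apart in all 3 captures. Within Ccl24-positive cells the Mmp9 level was close between the genotypes, 786 CPM in the wild type and 835 CPM in the knockout (1.06-fold, interval 0.950 to 1.19). Adamdec1 was also higher in Ccl24-positive cells, with 731 and 317 CPM in lane 1, 733 and 320 CPM in lane 2, and 1491 and 1018 CPM in the knockout. For Mmp13 the shares were apart in the wild-type lanes and overlapped in the knockout. Of the 8 members 0 were at least 2-fold higher in every capture, against 0.0405% of all genes, and 0 were lower, against 0.446%.

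Timd4-positive cells had more Adamdec1 and Mmp9. Adamdec1 stood at 922 CPM in Timd4-positive and 324 CPM in Timd4-negative cells of lane 1, at 575 and 337 CPM in lane 2, and at 1390 and 1006 CPM in the knockout, and the shares were apart in lane 1 and the knockout. Mmp9 stood at 470 and 360 CPM, 799 and 376 CPM, and 723 and 530 CPM in the same order, with shares that overlapped in every capture. The Mmp13 shares were apart in the knockout alone (55.4% and 47.5%). Mmp2 was higher in the positive cells of every capture (59.0 and 33.0 CPM, 59.8 and 33.8 CPM, 71.7 and 61.4 CPM), but its shares overlapped throughout and the positive cells of lane 2 held only 8 of its UMIs. Mmp12 was not stable between the lanes, at 76.2 and 21.7 CPM in lane 1 and at 7.47 and 16.7 CPM in lane 2. No member was at least 2-fold higher in every capture, against 0% of all genes, and none was lower, against 0.351%.

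In Ccr2-positive wild-type cells Mmp12 was higher and the other measurable members were lower to unequal extents. Mmp12 stood at 49.9 CPM in Ccr2-positive and 15.7 CPM in Ccr2-negative cells of lane 1, and at 28.2 and 13.5 CPM in lane 2, where its share of cells was not higher (0.571% and 1.23%, 1 and 9 cells). Adamdec1 showed the widest gap, with 106 and 406 CPM in lane 1 and 86.9 and 410 CPM in lane 2, and with shares of 8.69% and 29.0% in lane 1 and 9.71% and 26.4% in lane 2. Mmp2 had 12.9 and 39.6 CPM in lane 1 and 13.3 and 40.0 CPM in lane 2. Mmp9 had 201 and 408 CPM in lane 1 and 208 and 432 CPM in lane 2. Mmp13, at 196 and 381 CPM in lane 1 and 190 and 380 CPM in lane 2, came close to a 2-fold difference. Mmp14 had 170 and 240 CPM in lane 1 and 127 and 188 CPM in lane 2. Timp2, which was also lower in Thbs1-positive cells, had 23.8 and 30.5 CPM in lane 1 and 17.2 and 27.5 CPM in lane 2. Adam17 was nearly even, with 63.7 and 69.9 CPM in lane 1 and 54.0 and 57.4 CPM in lane 2. In both lanes 3 members were at least 2-fold lower (Mmp2, Mmp9 and Adamdec1), against 1.34% of all genes, and 1 was at least 2-fold higher (Mmp12), against 0.203%. The Mmp12 call was lost when cells with the highest doublet scores, or those with at least 3 markers of a non-macrophage type, were left out. With CPM from thinned counts both the Mmp12 and the Mmp9 call were lost.

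**Figure D3:**
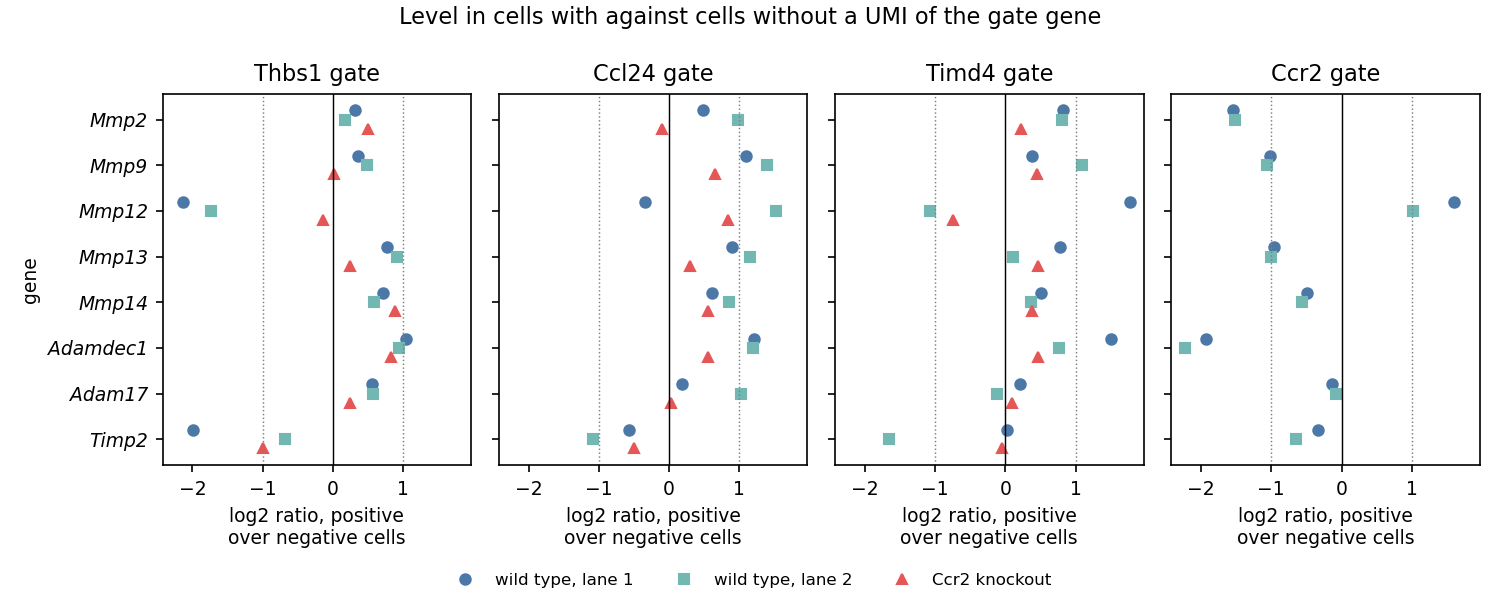
Log2 ratio of the CPM in cells with a UMI of Thbs1, Ccl24, Timd4 or Ccr2 over that in cells without one, for 8 genes and each capture; dotted lines mark a 2-fold difference. Adamdec1 lies to the right in the Thbs1, Ccl24 and Timd4 panels and far to the left in the Ccr2 panel, where Mmp12 alone lies to the right.

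For Adamdec1, Mmp13 and Timp2 the difference between the genotypes was also seen within the sides of these divisions that held at least 50 cells of each library. Among cells without a Ccr2 UMI after thinning, Adamdec1 stood at 407 CPM in the wild type and 1059 CPM in the knockout (2.60-fold, interval 2.52 to 2.69), Mmp13 at 381 and 916 CPM (2.40-fold) and Timp2 at 29.6 and 74.8 CPM (2.53-fold). When every cell with a Ccr2 UMI at full depth was left out, which removed 43.9% of wild-type cells, the Adamdec1 log2 ratio was 0.96, that of Mmp13 was 1.07 and that of Timp2 was 1.14. The ratios of Mmp9 and Mmp2 were then 0.11 and 0.29. Adamdec1 was 2.50-fold higher in Thbs1-positive, 2.04-fold in Ccl24-positive and 1.66-fold in Timd4-positive knockout cells than in wild-type cells of the same side. Mmp13 was 1.86-fold, 1.74-fold and 2.30-fold higher on these sides, and Timp2 was 4.58-fold (interval 2.67 to 8.29), 3.09-fold and 3.03-fold higher. Other members did not separate on every side. Mmp12 stood at 4.87 CPM in wild-type and 5.27 CPM in knockout Thbs1-positive cells. This rests on 9 UMIs in each library (1.08-fold, interval 0.380 to 3.08). On every other side read, Mmp12 was lower in the knockout, for example 0.260-fold in Thbs1-negative cells (interval 0.176 to 0.373). In Ccl24-positive cells the Mmp2 ratio was 1.13-fold (interval 0.720 to 1.75).

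Mmp13, Mmp9 and Timp2 varied with the immediate-early genes, which summed to 5404 CPM in the wild type and 21119 CPM in the knockout. The thinned cells of each library were divided into quartiles by the share of their UMIs that came from the 9 immediate-early genes. From the lowest to the highest quartile of the knockout, Mmp13 was detected in 39.9%, 46.7%, 50.8% and 57.1% of cells. Mmp9 followed with 27.3%, 29.6%, 39.1% and 43.7%, and Timp2 with 3.81%, 4.30%, 7.78% and 11.4%. Adamdec1 did not follow, with 54.1%, 55.6%, 47.2% and 46.5%, nor did Mmp14, with 23.5%, 20.7%, 19.7% and 18.5%. In the wild type, where the shares were lower, Mmp13 went from 24.3% to 31.7% and Mmp14 from 14.2% to 20.7% between the lowest and highest quartile, while Mmp9 (29.6% and 27.6%) did not rise and Timp2 (4.11% and 1.59%) was lower in the highest. Median depth was 3052 UMIs in the lowest and 1873 UMIs in the highest quartile of the knockout, before thinning.

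The highest wild-type quartile and the lowest knockout quartile had nearly the same median immediate-early share, 1.03% and 1.06%. Their ranges differed, 0.745% to 3.56% and 0% to 1.48%. Their median depths before thinning were 5302 and 3052 UMIs, so the quartiles were not matched cell by cell. Between them Adamdec1 was detected in 27.8% and 54.1% of cells, and Mmp13 in 31.7% and 39.9%, both with intervals apart. Mmp9 was at 27.6% and 27.3%, Mmp14 at 20.7% and 23.5%, and Timp2 at 1.59% and 3.81%, with overlapping intervals. The knockout quartile held 14 cells with at least 3 fibroblast markers and 43 with at least 3 markers of any non-macrophage type, and the wild-type quartile held 3 and 14; the part of these cells was not tested. Only 95 knockout cells lay at or below the wild-type median of the share. In them Mmp13 stood at 401 CPM, against 320 CPM in the wild-type cells below the same value, and was detected after thinning in 25% and 25.8% of cells, while Adamdec1 stood at 1396 and 337 CPM. Of these 95 cells, 11 had at least 3 fibroblast markers and held 248 of their 425 Adamdec1 UMIs. With all cells of non-macrophage gates removed, 72 knockout cells were left, and the log2 ratios were 1.17 for Adamdec1, 0.66 for Mmp13 and 0.32 for Timp2. The part of the immediate-early genes in the difference between the genotypes was not tested.

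**Figure D4:**
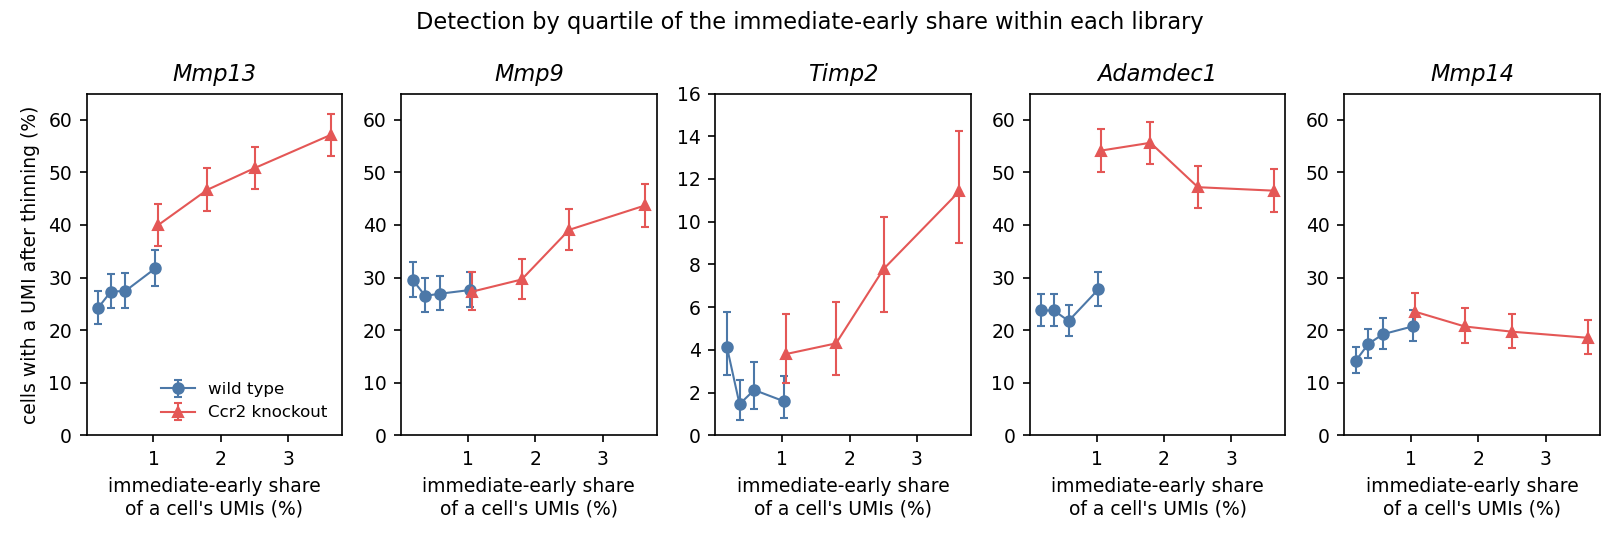
Percentage of thinned cells with a UMI of Mmp13, Mmp9, Timp2, Adamdec1 and Mmp14 (vertical axis; Timp2 has its own scale) against the median immediate-early share of UMIs in each quartile of cells within the wild-type and the knockout library, with exact 95% Clopper-Pearson intervals. Mmp13, Mmp9 and Timp2 are detected in more cells at each step across the knockout quartiles, whereas Adamdec1 stays near 50% in the knockout and near 25% in the wild type.

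Within cells, Adamdec1 went with Mmp14 and Mmp13 and apart from Timp2. Joint detection after thinning was compared with the product of the single shares. Mmp14 and Adamdec1 were found together 1.55, 1.48 and 1.45 times as often as that product in lane 1, lane 2 and the knockout, and Mmp13 and Adamdec1 1.43, 1.41 and 1.15 times. In the knockout 73.7% of Mmp14-positive cells had Adamdec1, against 44.9% of the others. Timp2 was detected in 3.58% of Adamdec1-positive and 10.2% of Adamdec1-negative knockout cells, and in lane 1 in 1.34% and 2.77%. The ratio to the product was 0.556 in lane 1, 0.454 in lane 2 and 0.524 in the knockout, although the wild-type lanes held only 7 and 2 cells with both. For Mmp9 and Adamdec1 the ratio was 1.27 in each wild-type lane, while joint detection in the knockout (17.8%) equalled the product (17.8%). These values describe cells of 1 library each, thinned to the same depth.

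Genes with a pattern across cells most like that of a member were sought among 1968 genes detected in at least 5% of thinned cells of each capture, by Pearson's r of log counts averaged over the 3 captures. Such correlations in sparse counts are weak, and only those with a mean r of at least 0.2 are named. For Adamdec1 they were Psap (prosaposin of the lysosome, 0.30), Wnt4 (a secreted Wnt ligand, 0.26) and Tspan13 (a tetraspanin, 0.25). For Mmp13 they were Psap (0.29), Lgmn (the lysosomal protease legumain, 0.22) and mt-Co1 (0.20), and for Mmp14 Psap (0.22). The r of Mmp13 with mt-Co1 was 0.217 and 0.297 in the wild-type lanes but 0.095 in the knockout. Mmp2, Mmp9, Mmp12, Adam17 and Timp2 had no gene at 0.2 or more, and Timp1 had no UMI left after thinning. Psap also ranked first for Mmp9 (0.16) and Adam17 (0.07), so it was not particular to the members above.

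Genes around these proteases were read from fixed lists, each given as the number past 2-fold among those above the minimum of 10 CPM. These counts stand beside the 9.04% of all genes that were higher and the 3.12% that were lower, and the median log2 ratio of 0.18. The lists, too, were chosen with earlier results of these data known. Of 5 plasminogen activation genes, Plau (urokinase, 12.4 CPM in the wild type and 66.8 CPM in the knockout) and its receptor Plaur (43.5 and 198 CPM) stood higher, and S100a10 (61.0 and 22.7 CPM) and Anxa2 (42.7 and 17.9 CPM), which together form a plasminogen receptor, stood lower. Among other protease inhibitors, Serping1 (the C1 inhibitor, 3.00 and 23.4 CPM) and Serpinb6a (13.3 and 29.5 CPM) stood higher. None stood at least 2-fold lower, and 3 were lower by less than that. No count of this list is set against all genes, because a listed gene is not reported here. Of 7 other ADAM and ADAMTS genes 1 stood higher, Adam28 (5.66 and 17.8 CPM). None of 8 cathepsin genes, which encode mostly lysosomal proteases, passed 2-fold, and their median log2 ratio of 0.15 lay close to that of all genes.

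Lists of genes taken as partners and substrates of ADAM17 were read alike. The partner list included tetraspanin genes, and whether every listed gene acts with ADAM17 was not checked. None of 5 partner genes, among them Rhbdf2 (an iRhom that escorts ADAM17 to the surface, 12.4 and 18.6 CPM), passed 2-fold. Of 10 substrate genes 3 stood higher and 0 lower: Cd163 (a haemoglobin scavenger receptor, 34.8 and 149 CPM), Tnf (29.4 and 123 CPM) and Mertk (a receptor for apoptotic cells, 35.2 and 96.8 CPM). The median was 0.54 for the partners and 0.76 for the substrates. Of 12 genes for matrix proteins and their uptake 8 stood higher and 0 lower, with a median of 1.64. The largest ratios were those of Col3a1 (5.51 and 66.9 CPM), Col1a1 (2.61 and 29.9 CPM), Sparc (11.0 and 77.6 CPM) and Col4a1 (2.56 and 18.9 CPM), of which Col3a1, Col1a1 and Sparc also differed at least 2-fold between the wild-type lanes. Col1a1 and Col3a1 are themselves fibroblast markers, and the part of stromal cells in this list was not tested.

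**Figure D5:**
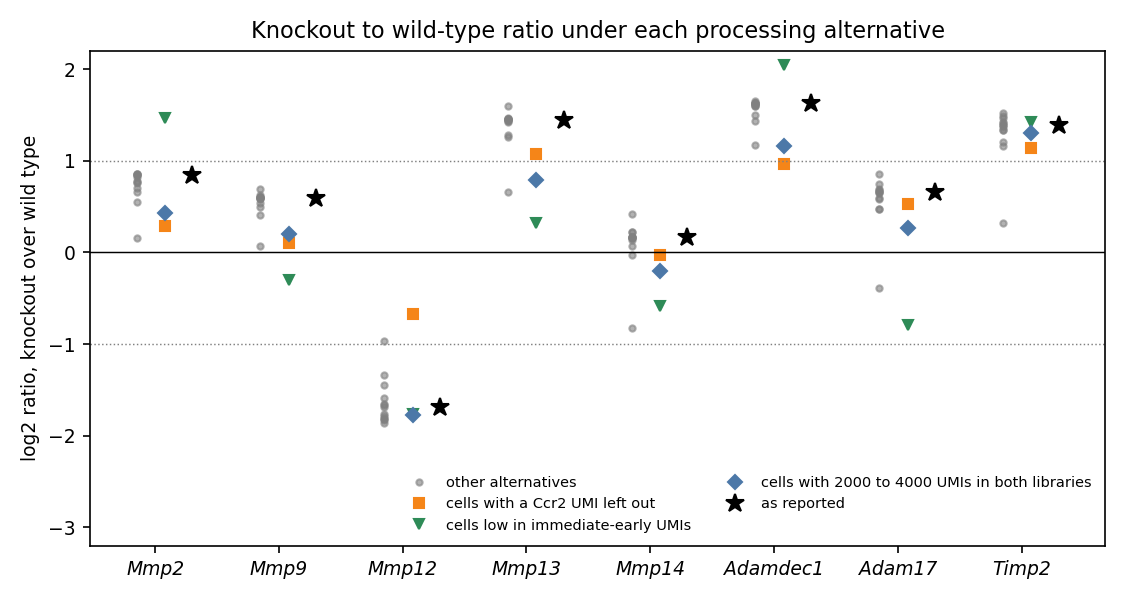
Log2 ratio between knockout and wild type for 8 genes as reported (stars) and under 16 processing alternatives (other symbols); dotted lines mark a 2-fold difference. Adamdec1, Timp2, Mmp13 and Mmp2 stay above zero and Mmp12 below it throughout, while Mmp14, Mmp9 and Adam17 cross zero. Timp2 ranges from 0.32 to 1.52 and Mmp13 from 0.32 to 1.59. Among cells with few immediate-early UMIs, Mmp12 has 1 knockout UMI, so its ratio there is not read. The lowest values of Mmp2 and Timp2 rest on 9 knockout UMIs each.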

How the data were processed

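The deposited matrices hold raw UMI counts per gene and cell, 1 matrix per genotype. Per the submitters' processing notes, Cell Ranger 3.0.1 and the build mm10 were used; the annotation and any equalisation of depth between lanes are not given in the sources used here. From the counts, cells were kept if they had 200 or more genes and no more than 10% of UMIs from mitochondrial genes, UMIs were summed per capture and scaled to CPM, and log2 ratios were taken with a pseudocount of 1 CPM for genes with a mean of at least 10 CPM. No count model was fitted and no p-value is given, because each genotype is 1 library. Sums carry exact Poisson intervals and shares exact Clopper-Pearson intervals at the 95% level. Both cover counting error only and not the spread between mice. Shares and the divisions by gate genes used cells thinned to 1000 UMIs with a fixed seed. The interval of a ratio conditions on the sum of both counts. Doublets were not removed; an alternative left out the highest Scrublet scores (scanpy 1.11.5). Python 3.11.15, numpy 2.4.6, scipy 1.17.1 and pandas 2.3.3 were used, and the steps were tested on simulated data. Gene positions come from GENCODE M21 and promoters from RefSeq. All 9 members are named; genes of the other lists are named where their ratio passed 2-fold, up to 4 per list and direction, and Rhbdf2, Mmp10 and Mmp19 were chosen after their values were seen. A listed inhibitor gene is not reported here. The members, the gate genes and the lists were chosen with earlier results of these data known.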

Additional observations from a re-analysis of the deposited data

How the results depend on the processing

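No paired analysis was possible because each genotype is 1 library and no replicate numbers are shared. Of 16 alternatives, the log2 ratio kept its sign in all for Mmp2, Mmp12, Mmp13, Adamdec1 and Timp2. It did so in 15 for Mmp9, 14 for Adam17 and 11 for Mmp14. For Mmp12 this counts both sets of cells with few immediate-early UMIs, where the ratio is not read. The lowest ratios of Mmp2 (0.16) and Timp2 (0.32) rest on 9 knockout UMIs each. The number of members at least 2-fold higher was 3 and became 1 (Adamdec1) in cells with few immediate-early UMIs and no non-macrophage gate, chosen after seeing the data; in all cells with few immediate-early UMIs it was 3 again, with Mmp2 in place of Mmp13. It was 2 among cells of 2000 to 4000 UMIs, where Mmp13 was lost, and without Ccr2-positive cells, where Adamdec1 was lost (0.96). The 1 member at least 2-fold lower, Mmp12, became 0 with a pseudocount of 10 CPM and without cells that had a Ccr2 UMI at full depth. It also became 0 without the 10 cells richest in the gene, where its mean fell under 10 CPM and its log2 ratio was -1.79. The call was likewise lost in both sets of cells with few immediate-early UMIs. There the knockout held 1 Mmp12 UMI, under the floor of 3 counts, so the ratio in these sets is not read. Members with a higher share went from 5 to 3 unthinned and to 3 without Ccr2-positive cells. Members with a lower share went from 1 to 4 unthinned, and to 0 with lane 2 alone, without Ccr2-positive cells and under the stricter cell filter (at least 500 genes, at most 5% mitochondrial UMIs). Unthinned, the share difference turned to -1.98 percentage points for Mmp9 and -10.7 for Adam17, and to -5.71 for Mmp2 and -21.2 for Mmp14. The 1 member at least 2-fold higher in Ccr2-positive cells of both lanes, Mmp12, became 0 with CPM from thinned counts, without non-macrophage gates and without the highest Scrublet scores. Apart from what these constructions show, the cause was not tested. Few UMIs limit Mmp12 in lane 2 and the knockout. Timp1 has 3 in all, with an upper Poisson limit of 0.349 CPM in the wild type and 0.767 CPM in the knockout. The part of low expression and of the unstated annotation was not tested.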
